A study of Mus musculus with 14 samples.

Results

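A set of 10 genes of the SWI/SNF and CHD chromatin remodeler families are described here in mouse hippocampus: Smarca2, Smarca4, Smarcb1, Arid1a, Arid1b, Arid2, Chd3, Chd4, Chd7 and Chd8. They were chosen by symbol and not by a limit on a measured value, though with earlier results of these data known. All 10 genes were found, at 11 of the 81411 loci of the authors' deposited tables and among the 16589 genes tested in the libraries. The study measured RNA from the hippocampus of C57BL6 mice that were wild type (KMT2D+/+) or heterozygous for the βGeo insertion in Kmt2d (KMT2D+/bGeo), a mouse model of Kabuki syndrome whose cells keep 1 intact copy of the gene. TAK-418, which inhibits LSD1, a histone demethylase, was given by gavage at 1 mg/kg/day in methylcellulose, or methylcellulose was given alone, for 2 weeks from 2 weeks of age. The mice were 30 days old at harvest. The groups held 3 wild types and 3 mutants on vehicle and 5 wild types and 3 mutants on TAK-418, as the sample labels list them, with 1 library for each numbered sample (the series' design text gives 3 to 4 mice a group, fewer than the 5 treated wild types listed), all bulk total RNA, so fewer cells of a type and less RNA per cell cannot be told apart. Replicate numbers below only name the libraries of a group, and p-values measure the spread between these libraries.

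Chromatin remodelers use ATP to slide, evict or exchange nucleosomes. The SWI/SNF complex, called BAF in mammals, is built around 1 of a pair of alternative ATPases, Smarca2 (BRM) or Smarca4 (BRG1), with the core subunit Smarcb1 and an ARID protein. Arid1a or Arid1b marks the canonical BAF form, and Arid2 marks the PBAF form. Chd3 and Chd4 are the ATPases of the NuRD complex, which joins remodeling to histone deacetylation, while Chd7 and Chd8 belong to another CHD subfamily. Several of these genes are mutated in human neurodevelopmental disorders: Arid1b, Smarca4, Smarcb1 and Arid1a in Coffin-Siris syndrome, Smarca2 in Nicolaides-Baraitser syndrome, Chd7 in CHARGE syndrome and Chd8 in a form of autism.

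Each library file lists transcripts that the authors assembled, and 7 of the 10 genes were assembled in more than 1 form at a splice site often enough to be followed in every library. Of these differences, 8 were small segments that one form has and the other lacks, and their sequences are shown because each is the whole difference between a pair of forms. Capitals mark the segment and lower case marks the 15 bases of exon on either side, read 5′ to 3′ on the gene's strand from GENCODE M21 transcripts (GRCm38, the same assembly as mm10). The length of every segment is a multiple of 3.
Smarca2, 54-base cassette exon at chr19:26759878-26759931 (+): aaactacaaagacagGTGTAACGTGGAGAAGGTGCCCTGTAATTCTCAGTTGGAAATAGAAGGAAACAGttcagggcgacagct
Smarca4, 9 bases at chr9:21686013-21686021 (+): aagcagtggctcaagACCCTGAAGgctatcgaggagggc
Smarca4, 3 bases at chr9:21699800-21699802 (+): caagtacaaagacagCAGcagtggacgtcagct
Smarcb1, 27 bases at chr10:75916773-75916799 (-): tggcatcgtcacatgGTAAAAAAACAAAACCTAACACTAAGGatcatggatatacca
Arid1a, 3 bases at chr4:133687377-133687379 (-): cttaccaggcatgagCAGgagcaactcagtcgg
Chd4, 39 bases at chr6:125102432-125102470 (+): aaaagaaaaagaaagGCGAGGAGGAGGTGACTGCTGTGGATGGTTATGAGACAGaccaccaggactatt
Chd7, 3 bases at chr4:8856671-8856673 (+): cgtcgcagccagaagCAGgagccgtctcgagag
Chd8, 24 bases at chr14:52212720-52212743 (-): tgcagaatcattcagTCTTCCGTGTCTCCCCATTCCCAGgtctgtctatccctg

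All 10 genes were listed in all 14 libraries. A gene's level is given on 2 scales, both per length. The summed level adds the FPKM-like abundance of the gene's assembled transcripts after scaling between libraries. The full-length level multiplies each abundance by its transcript's length, adds these products and divides by the median length of the gene's longest transcript, so that a gene assembled in several pieces is not counted several times. It falls where part of a gene was not assembled and rises where a transcript runs past the gene. On the full-length scale the order was Chd3 155, Chd4 59.1, Smarca2 58.0, Smarca4 49.4, Smarcb1 38.6, Arid1a 22.8, Arid1b 21.8, Chd8 20.5, Arid2 8.29 and Chd7 3.29 (means of 14 libraries). Chd3 exceeded Chd4 in all 14 libraries without overlap of their ranges. The ranges of 4 neighbouring pairs overlapped: Chd4 and Smarca2, which held this order in 8 of 14 libraries, Smarca2 and Smarca4 (14 of 14), Arid1a and Arid1b (9 of 14), and Arid1b and Chd8 (11 of 14). The spread over all 14 libraries was narrow for Smarca2, with a coefficient of variation of 3.67% on the full-length scale, for Chd4 (4.55%), Smarcb1 (4.70%) and Chd3 (5.02%), and wider for Chd7 (10.2%) and Chd8 (21.4%). The Chd8 mean and spread on this scale were raised by 2 libraries, at 29.3 and 32.2, whose transcripts ran past the gene.

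**Figure D1:**
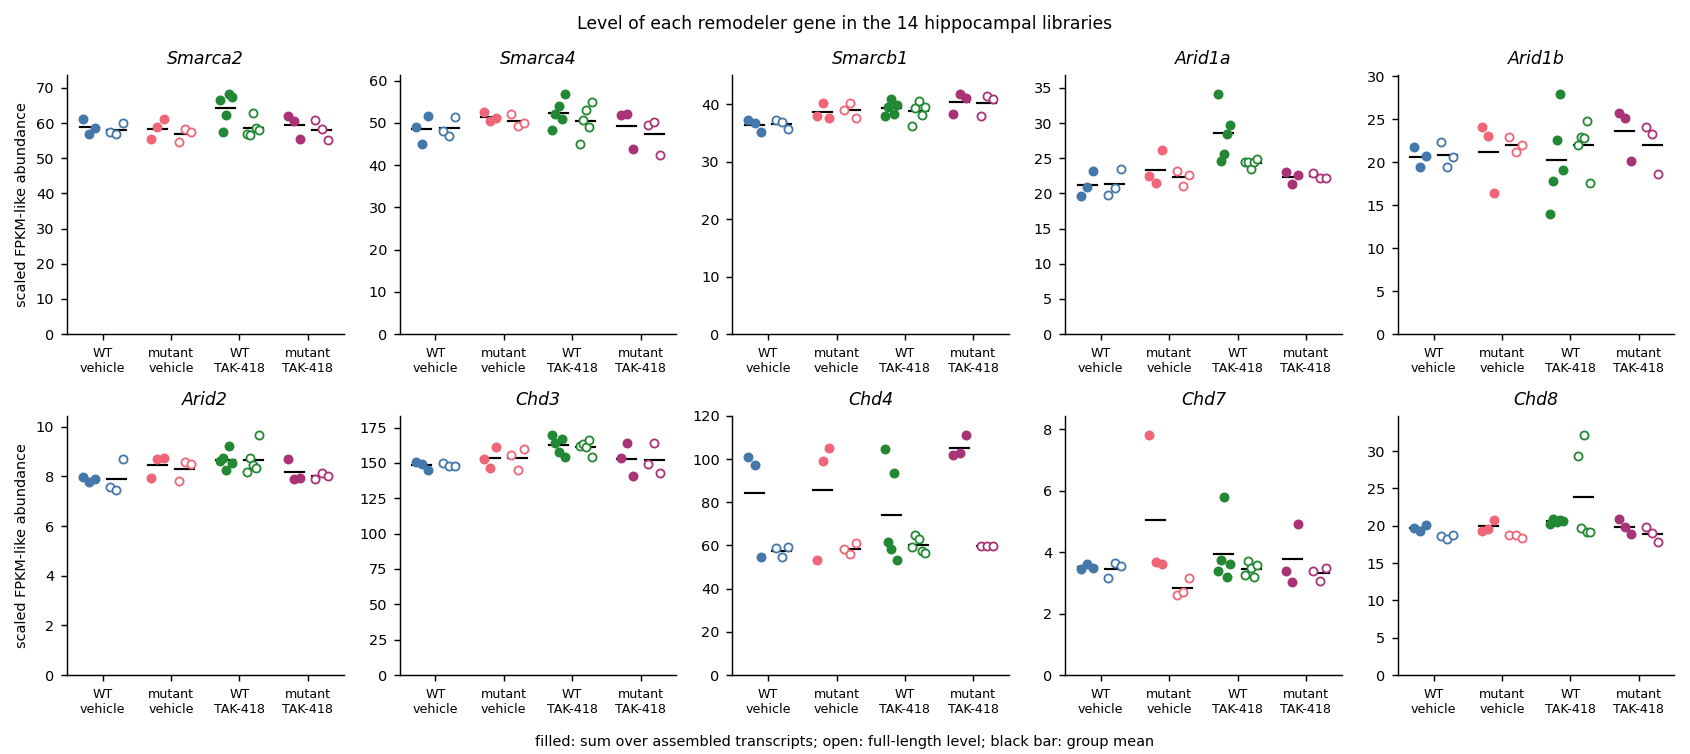
Level of each gene in every library (points) by group, with the group mean as a black bar; the vertical axis starts at 0 and is the scaled FPKM-like abundance. Filled points are summed levels and open points full-length levels: Chd4 falls into a high and a low set when summed (53.2 to 111) and into a single band on the full-length scale (54.6 to 64.8).

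The ATPase Smarca2 (ENSMUSG00000024921.17, chromosome 19, 26605050 to 26778322, + strand) had full-length levels of 57.4, 56.9 and 59.9 in the wild-type vehicle libraries and 54.8, 58.4 and 57.5 in the mutant vehicle libraries. With TAK-418 they were 57.0, 56.5, 62.8, 58.6 and 58.2 in wild types and 61.0, 58.2 and 55.3 in mutants. The 4 groups overlapped. Its alternative ATPase Smarca4 (ENSMUSG00000032187.16, chromosome 9, 21616169 to 21704230, + strand) stood at 48.2, 46.8 and 51.4 in wild-type vehicle libraries, at 52.0, 49.3 and 49.99 in mutant vehicle libraries, at 45.0 to 54.8 in wild types given TAK-418 and at 49.5, 50.2 and 42.3 in treated mutants. These groups overlapped too. The full-length ratio of Smarca2 to Smarca4 ran from 1.05 to 1.31 over the 14 libraries, with means under vehicle of 1.19 ± 0.025 for wild types and 1.13 ± 0.068 for mutants (SD, n = 3 each), and with TAK-418 of 1.17 ± 0.079 for wild types (SD, n = 5) and 1.23 ± 0.074 for mutants (SD, n = 3). The authors' deposited tables put Smarca2 much further above Smarca4, at 111 to 116 against 32.1 to 35.8 FPKM.

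The core subunit Smarcb1 (ENSMUSG00000000902.13, chromosome 10, 75896769 to 75921617, - strand) was assembled as 2 transcripts of 9 exons in every library, so no short pieces entered its sum. Summed levels were 37.2, 36.8 and 35.1 in wild-type vehicle libraries and 38.0, 40.3 and 37.6 in mutant vehicle libraries. They were 38.0, 39.5, 41.0, 38.4 and 39.8 in treated wild types and 38.3, 41.8 and 41.1 in treated mutants. The 3 wild-type vehicle libraries lay below all 11 others on this scale, a split seen in the data and not tested. How often groups fail to overlap over all genes was not counted. Lack of overlap, here and for the genes below, is therefore a description only. On the full-length scale wild-type TAK-418 replicate 1, at 36.2, lay within the 35.8 to 37.2 of the vehicle wild types, so the 2 wild-type groups overlapped, while both mutant groups stayed above 37.2. The log2 difference of treated mutants from vehicle wild types was 0.15 ± 0.046 (SE), with an unadjusted p of 0.00739 and an adjusted p of 0.763 by limma. For TAK-418 against vehicle in wild types it was 0.11 ± 0.041 (SE; unadjusted p = 0.0204, adjusted p = 0.482), and for mutants against wild types under vehicle it was 0.08 ± 0.046 (SE; unadjusted p = 0.0933, adjusted p = 0.926). The drug effect averaged over both genotypes was 0.09 ± 0.031 (SE; unadjusted p = 0.0154, adjusted p = 0.496). None passed the test across all genes. With abundance times length the drug difference in wild types was 0.08 ± 0.044 (SE; unadjusted p = 0.0899, adjusted p = 0.607), the drug effect over both genotypes 0.06 ± 0.033 (SE; unadjusted p = 0.0853, adjusted p = 0.655) and the difference of treated mutants from vehicle wild types 0.13 ± 0.0497 (SE; unadjusted p = 0.0223, adjusted p = 0.836). Without scaling of the libraries the genotype difference under vehicle was -0.0044, where the median over all genes was -0.076.

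Of the ARID subunits, Arid1a (ENSMUSG00000007880.16, chromosome 4, 133679008 to 133756769, - strand), which marks canonical BAF, had summed levels of 19.7, 20.8 and 23.1 in wild-type vehicle libraries and 34.2, 24.6, 25.6, 28.5 and 29.7 in treated wild types, and the 2 groups did not overlap. The mutants stood at 22.5, 21.5 and 26.2 under vehicle and at 23.0, 21.3 and 22.6 with TAK-418. The difference in wild types was 0.41 ± 0.10 on the log2 scale (SE), with an unadjusted p of 0.00161 and an adjusted p of 0.28 by limma, the smallest adjusted p of any of the 10 genes in the 9 contrasts. Treated mutants differed from treated wild types by -0.34 ± 0.10 (SE; unadjusted p = 0.00575, adjusted p = 0.903). The difference between the drug effects in the 2 genotypes was -0.47 ± 0.15 (SE; unadjusted p = 0.00875, adjusted p = 0.976). Vehicle mutants differed from treated wild types by -0.27 ± 0.10 (SE; unadjusted p = 0.0185, adjusted p = 0.448), and the drug effect over both genotypes was 0.17 ± 0.075 (SE; unadjusted p = 0.0413, adjusted p = 0.58).

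Part of the summed Arid1a level came from short transcripts at its 3′ end. A 4-exon transcript was listed beside the 20-exon one in 3 of the 5 treated wild-type libraries and in mutant vehicle replicate 3. There it held 19.0% to 32.7% of the sum. In wild-type TAK-418 replicate 1, the library with the highest sum, a 6-exon transcript held 18.8 of the summed 34.2. That was more than the 10.5 and 4.86 of the 19-exon transcripts beside it. On the full-length scale the wild-type vehicle libraries stood at 19.8, 20.7 and 23.5 and the treated wild types at 24.5, 24.4, 23.5, 24.5 and 24.9. The groups then met at 23.5. With abundance times length in place of the sum, the difference was 0.19 ± 0.051 (SE; unadjusted p = 0.00266, adjusted p = 0.302), and with the highest transcript alone it was -0.02 (adjusted p = 0.976). The other Arid1a differences were also smaller with abundance times length: -0.12 ± 0.051 for genotype under TAK-418 (SE; unadjusted p = 0.0389), -0.18 ± 0.076 between the drug effects in the 2 genotypes (SE; unadjusted p = 0.035), -0.13 ± 0.051 for vehicle mutants against treated wild types (SE; unadjusted p = 0.026) and 0.10 ± 0.038 for the drug over both genotypes (SE; unadjusted p = 0.0203), with adjusted p of 0.453 to 0.99 by limma.

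Arid1b (ENSMUSG00000069729.14, chromosome 17, 4994332 to 5347656, + strand), the alternative to Arid1a, had full-length levels of 22.4, 19.5 and 20.7 in wild-type vehicle, 22.9, 21.3 and 22.0 in mutant vehicle, 17.5 to 24.8 in treated wild-type and 24.1, 23.3 and 18.6 in treated mutant libraries. These groups overlapped, and the full-length ratio of Arid1a to Arid1b ran from 0.884 to 1.42. Arid2 (ENSMUSG00000033237.19, chromosome 15, 96287518 to 96404992, + strand), which marks PBAF, had summed levels of 7.97, 7.78 and 7.88 in wild-type vehicle libraries and 8.62, 8.72, 8.26, 9.22 and 8.53 in treated wild types. It stood at 7.94, 8.68 and 8.74 in vehicle mutants and at 8.72, 7.91 and 7.95 in treated mutants. The wild-type groups did not overlap, with a log2 difference of 0.12 ± 0.053 (SE; unadjusted p = 0.0378, adjusted p = 0.556). On the full-length scale they did overlap, at 7.45 to 8.72 against 8.19 to 9.68.

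Among the NuRD ATPases, Chd3 (ENSMUSG00000018474.17, chromosome 11, 69343273 to 69369406, - strand) was the most abundant of the 10 genes. Its summed levels were 151, 149 and 145 in wild-type vehicle libraries and 170, 164, 158, 167 and 154 in treated wild types. The mutants stood at 153, 147 and 161 under vehicle and at 153, 164 and 140 with TAK-418, and they overlapped both wild-type groups. The wild-type groups did not overlap on either scale. Their log2 difference was 0.13 ± 0.053 on the summed scale (SE; unadjusted p = 0.027, adjusted p = 0.518) and 0.12 ± 0.046 with abundance times length (SE; unadjusted p = 0.0238, adjusted p = 0.486), so neither passed across all genes.

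For Chd4 (ENSMUSG00000063870.12, chromosome 6, 125095981 to 125130591, + strand), the other NuRD ATPase, the summed level was set by whether a separate 2-exon transcript at the 3′ end was listed. That transcript, of 933 to 1011 bases, appeared in 9 libraries at scaled abundances of 41.3 to 55.4, or 44.1% to 50.7% of the sum. Those 9 libraries summed to 93.6 to 111, and the other 5, of which 3 were treated wild types, summed to 53.2 to 61.5. On the full-length scale Chd4 was 58.8, 54.6 and 59.1 in wild-type vehicle, 58.2, 55.98 and 61.0 in mutant vehicle, 59.1, 64.8, 62.9, 57.2 and 56.4 in treated wild-type and 59.8, 59.8 and 59.6 in treated mutant libraries. Treated mutants lay just above vehicle wild types, whose highest library was 59.1, and the log2 difference was 0.37 ± 0.32 on the summed scale (SE; adjusted p = 0.998) and 0.06 ± 0.055 with abundance times length (SE; adjusted p = 0.996). The full-length ratio of Chd3 to Chd4 ran from 2.39 to 2.90, whereas the ratio of summed levels ran from 1.26 to 2.90.

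Chd7 (ENSMUSG00000041235.12, chromosome 4, 8690406 to 8867659, + strand) was the least abundant of the 10 genes. The sign of its log2 difference changed between the summed scale and abundance times length in 7 of the 9 contrasts, against 4 for Chd4, 3 each for Smarca4 and Arid1b, 0 for Chd3 and 1 for each of the others. Summed levels were 3.43, 3.61 and 3.49 in wild-type vehicle and 7.81, 3.67 and 3.60 in mutant vehicle libraries. In mutant vehicle replicate 1 the gene was assembled as 4 separate transcripts of 23, 13, 3 and 2 exons, where most other libraries listed a single chain of 37 or 38 exons. Full-length levels were 3.16, 3.65 and 3.54 in wild-type vehicle, 2.62, 2.69 and 3.16 in mutant vehicle, 3.20 to 3.71 in treated wild-type and 3.39, 3.05 and 3.48 in treated mutant libraries. This scale counts only assembled bases. The longest chain was 8995 and 8749 bases in mutant vehicle replicates 2 and 3, and 9941 to 10217 in wild-type vehicle libraries. Mutant vehicle replicate 3 listed no other piece. Whether missing bases have a part in the lower mutant levels was not tested. Mutants under vehicle differed from wild types by 0.35 ± 0.25 on the summed log2 scale (SE; unadjusted p = 0.19) and by -0.29 ± 0.089 with abundance times length (SE; unadjusted p = 0.00777, adjusted p = 0.749). With abundance times length, vehicle mutants differed from treated wild types by -0.29 ± 0.079 (SE; unadjusted p = 0.00389, adjusted p = 0.301) and treated from vehicle mutants by 0.23 ± 0.089 (SE; unadjusted p = 0.0257, adjusted p = 1.00).

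Chd8 (ENSMUSG00000053754.14, chromosome 14, 52198151 to 52257780, - strand) had the narrowest summed levels, with a coefficient of variation of 3.40%. They were 19.7, 19.2 and 20.1 in wild-type vehicle, 19.3, 19.6 and 20.8 in mutant vehicle, 20.3, 20.9, 20.5, 20.7 and 20.7 in treated wild-type and 20.9, 19.9 and 18.8 in treated mutant libraries. The wild-type groups did not overlap, and their log2 difference was 0.06 ± 0.040 (SE; unadjusted p = 0.134, adjusted p = 0.679). The wide full-length spread of this gene came from wild-type TAK-418 replicates 1 and 3, at 29.3 and 32.2 against 17.8 to 19.9 in the other 12 libraries. In those 2 libraries Chd8 transcripts of 60 to 63 exons ran past the annotated end of the gene to positions 52160964 and 52160583, where the annotation has at most 38 exons for Chd8. In the authors' deposited tables Chd8 shares 1 locus with Supt16, so its values there cover both genes.

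**Figure D2:**
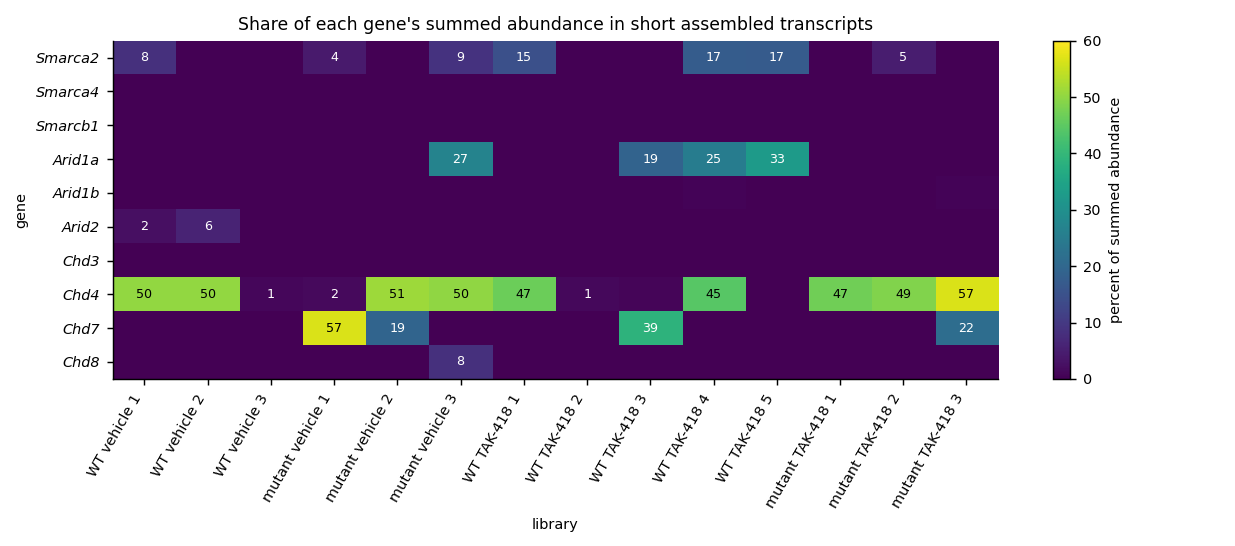
Percent of each gene's summed abundance (colour, with the value printed where it is at least 1) that lay in assembled transcripts shorter than 50% of the median longest transcript of the gene; rows are genes and columns are the 14 libraries. Chd4 stands out with 44.5% to 56.6% in 9 libraries, while Smarca4, Smarcb1 and Chd3 have none. The 6-exon Arid1a transcript of wild-type TAK-418 replicate 1, of 4711 bases, is longer than this limit and is not counted.

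Across all genes, none of the 10 was called at an adjusted p of 0.05 in any of the 9 contrasts by limma. With TAK-418 in wild types, 0 of 10 were called against 0% of the 16589 genes, and 4 (Smarcb1, Arid1a, Arid2 and Chd3, all higher) had an unadjusted p under 0.05, against 8.42% of all genes. Of the 10, 8 had higher summed levels with the drug, with a median log2 difference of 0.11 against -0.0035 over all genes. All 10 were at or above 0 with abundance times length, where the median was 0.08 against 0.01 over all genes and 2 genes had an unadjusted p under 0.05. The count of 4 fell to 1 without wild-type vehicle replicate 3, the library with the highest level of choroid plexus genes. That library also had the lowest relative depth (given below) and the fewest assembled transcripts. The count fell to 3 without wild-type vehicle replicate 1. It fell to 2 without wild-type vehicle replicate 2, without wild-type TAK-418 replicate 1 or without wild-type TAK-418 replicate 4. It also fell to 2 without scaling, with abundance times length or with the highest transcript alone, and it rose to 5 with upper quartile scaling. In mutants, 0 of 10 were called for TAK-418 against vehicle (0.00603% of all genes) and 0 had an unadjusted p under 0.05 (4.4% of all genes), with 4 higher and 6 lower and a median of -0.0063 against 0.0015 over all genes. Without scaling 6 were higher, with medians of 0.01 for the 10 and 0.02 for all genes, and with upper quartile scaling 7 were, with medians of 0.0400 and 0.0433, so the members' median lay below that of all genes each time. The 95% confidence intervals of the drug effect in mutants reached at most from -0.84 for Chd7 to 1.05 for Chd4 on the summed scale.

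For the genotype difference under vehicle, 0 of 10 were called (0% of all genes) and 0 had an unadjusted p under 0.05 (5.48%), with 9 of 10 higher in mutants and a median log2 difference of 0.07. Without scaling 3 of 10 were higher, with a median of -0.02 against -0.076 over all genes, so the members' median lay above that of all genes with and without scaling. With abundance times length, the highest transcript alone or assignment by exon overlap, 1 of 10 had an unadjusted p under 0.05. Under TAK-418, 0 of 10 were called (0.0121%) and 1, Arid1a, had an unadjusted p under 0.05 (4.94%), with 7 of 10 lower in mutants and a median of -0.06. For treated mutants against vehicle wild types, 0 of 10 were called (0.00603%) and 1, Smarcb1, had an unadjusted p under 0.05 (5.37%). All 10 were higher there on the summed scale and 8 of 10 with abundance times length, with medians of 0.06 and 0.03, and without scaling 5 of 10 were, with a median of -0.0039 against -0.060 over all genes. The count of 1 fell to 0 without scaling. For vehicle mutants against treated wild types, 0 of 10 were called (0%) and 2 had an unadjusted p under 0.05 (9.23%): Arid1a, given above, and Smarca2, at -0.14 ± 0.061 (SE; unadjusted p = 0.0436, adjusted p = 0.526) on the summed scale and -0.04 with abundance times length. That count of 2 fell to 0 without mutant vehicle replicate 1, without mutant vehicle replicate 2 or with the highest transcript alone. It fell to 1 without any 1 of wild-type vehicle replicates 2 and 3, wild-type TAK-418 replicates 1, 4 and 5 and mutant TAK-418 replicate 2, with sample weights, with no trend of the variance on the level, or in a fit of these 2 groups alone. For the difference between the drug effects in the 2 genotypes, 0 of 10 were called (0.00603%) and 1, Arid1a, had an unadjusted p under 0.05 (4.44%). For genotype over both treatments, 0 of 10 were called (0.00603%) and 0 had an unadjusted p under 0.05 (5.87%). For drug over both genotypes, 0 of 10 were called (0.0121%) and 2, Arid1a and Smarcb1, had an unadjusted p under 0.05 (8.3%). This count fell to 0 without scaling or with the highest transcript alone. It fell to 1 without any 1 of wild-type vehicle replicates 1 and 2, wild-type TAK-418 replicates 4 and 5, mutant vehicle replicates 1 and 2 and mutant TAK-418 replicate 1, and with a sex covariate or abundance times length. The count for genotype under TAK-418 rose from 1 to 2 without wild-type TAK-418 replicate 1, 2 or 4 or mutant TAK-418 replicate 2, and that for the difference between drug effects rose from 1 to 2 without mutant vehicle replicate 1, mutant TAK-418 replicate 1 or 2 or wild-type TAK-418 replicate 3. For genotype over both treatments it rose from 0 to 1 without mutant TAK-418 replicate 1 or wild-type TAK-418 replicate 3. Without scaling the counts were 3 for genotype under TAK-418 and for vehicle mutants against treated wild types, and 2 for genotype over both treatments. With abundance times length they were 1 for TAK-418 in mutants and for genotype over both treatments, in both cases Chd7. Sample weights or a sex covariate gave 2 for genotype under TAK-418 and for the difference between drug effects. The contrasts share groups, so their counts are not independent of each other.

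**Figure D3:**
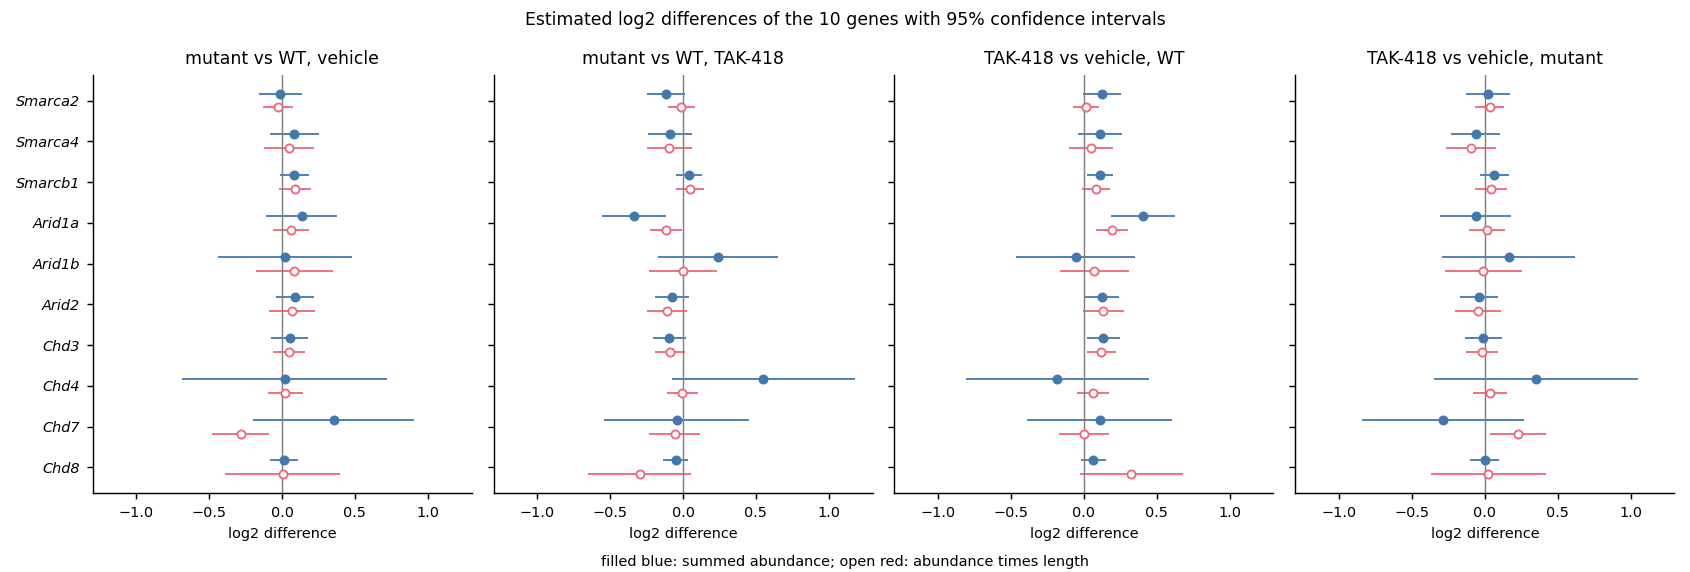
Estimated log2 difference (points) with 95% confidence interval (lines) of each gene in 4 contrasts, from summed abundance (filled blue) and from abundance times length (open red); the grey line marks 0. Intervals of Chd4 and Chd7 are wide on the summed scale and narrow with abundance times length, and Arid1a lies above 0 on both in wild types given TAK-418.

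The authors' deposited tables pool each group into 1 value and give no spread between mice. In the authors' deposited table of wild-type against mutant vehicle mice, 0 of the 10 tested member loci had a q-value under 0.05, against 0.224% of 32966 tested loci, and the log2 fold changes ran from -0.02 to 0.13. In the authors' deposited table of vehicle wild types against treated mutants it was 0 of 10 (0.324% of all tested loci), with all 10 higher in treated mutants by 0.01 to 0.15. The authors' deposited table of treated wild types against treated mutants had 0 of 10 (0.218%), between -0.12 and 0.04, and the authors' deposited table of treated wild types against vehicle mutants had 0 of 10 (0.611%), between -0.14 and 0.01. The smallest unadjusted p-value of a member in the authors' deposited tables was 0.124, for Arid1a at 18.9 FPKM in treated wild types and 17.2 in vehicle mutants. Over the authors' deposited tables Chd3 ranged from 131 to 144 FPKM, Smarca2 from 111 to 116, Chd4 from 49.4 to 52.3, Smarca4 from 32.1 to 35.8, Smarcb1 from 28.5 to 31.9, Arid1a from 16.9 to 19.1, Arid1b from 13.8 to 15.6, Arid2 from 6.91 to 7.18 and Chd7 from 4.35 to 4.49. The joint locus of Chd8 and Supt16 in the authors' deposited tables ranged from 41.5 to 43.4 FPKM. Chd4, Arid2 and Smarca4 shared their loci in the authors' deposited tables with Mir7045, Gm25397 and Gm27373, and a further Arid1a locus there was marked as not tested. The Smarca2 locus there ran to position 26823907, past the annotated gene end of 26778322. Its FPKM lay far above those of Smarca4 and Chd4, whereas full-length levels in the libraries were 58.0, 49.4 and 59.1 (means). Why the sources differ was not tested.

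The splice choices shown above were compared between groups as the share of abundance in the form that includes the segment. In all, 11 pairs of introns that share a splice site passed the limits on use, and none of 44 exact permutation tests (two-sided, 4 contrasts) was called after Benjamini-Hochberg adjustment, with 2 at an unadjusted p under 0.05. A call would have needed 16 tests at the smallest possible p of 0.0179, which only the tests of 3 against 5 libraries can reach. Those of 3 against 3 (genotype under vehicle, TAK-418 in mutants) cannot go below 0.1 and could not be called. The design thus left little room for a call. The 2 tests under 0.05 are the same choice, since the cassette exon of Smarca2 enters once for each of its flanking introns. Its inclusion was 25.1%, 29.1%, 31.7%, 30.0% and 30.3% in treated wild types and 34.4%, 34.7% and 32.9% in treated mutants, without overlap. The difference of 4.74 percentage points had an exact two-sided permutation p of 0.0179, the smallest that 3 against 5 libraries can give, and an adjusted p of 0.393. Under vehicle, inclusion was 17.3%, 36.2% and 38.8% in wild types and 34.9%, 31.6% and 28.2% in mutants, a range that spans both treated groups. Short Smarca2 transcripts that lack the exon count in these shares. Short transcripts held 14.7%, 17.4% and 17.2% of the sum in wild-type TAK-418 replicates 1, 4 and 5. They held 4.69% in mutant TAK-418 replicate 2 and 0% in the other treated libraries. Among 33- and 34-exon transcripts alone, wild-type TAK-418 replicate 4 had 20.5 with the exon and 36.0 without. Mutant TAK-418 replicate 3 had 18.2 and 37.2, so the treated groups then overlap. That comparison was not tested.

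The shares of Chd4 and Smarcb1 were the steadiest. The 39-base segment of Chd4 was included in 61.7% to 77.3% of abundance, with means under vehicle of 72.9% ± 3.94 for wild types and 71.2% ± 1.96 for mutants (SD, n = 3 each), and with TAK-418 of 72.0% ± 2.47 for wild types (SD, n = 5) and 69.5% ± 6.96 for mutants (SD, n = 3). The 27-base segment of Smarcb1 was included in 80.4% to 90.4%. It was at 89.4%, 88.0% and 89.9% in vehicle mutants and 87.4%, 83.2% and 87.1% in treated mutants, without overlap, at an exact two-sided permutation p of 0.1, the smallest that 3 against 3 libraries can give. The 24-base segment of Chd8 ranged from 5.40% to 67.4%, with 67.4%, 54.1% and 53.1% in treated mutants and 42.8%, 5.40%, 51.7%, 45.0% and 15.1% in treated wild types. Those groups did not overlap, at an exact two-sided permutation p of 0.107, and in vehicle libraries the share ran from 12.99% to 59.99%. Of the Smarca4 segments, the 9-base one ranged from 0% to 72.7% with overlap between groups. The 3-base one ranged from 30.3% to 100% and was at 75.5% to 87.9% in treated wild types and 88.3%, 87.9% and 100% in treated mutants (exact two-sided permutation p = 0.0714).

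For the 3-base segments of Arid1a and Chd7 each library listed a single form, so the values are 0% or 100% and do not measure shares of reads. The Chd7 form with the segment was the one listed in all 3 wild-type vehicle libraries and in none of the 3 mutant vehicle libraries (exact two-sided permutation p = 0.1, the smallest possible; adjusted p = 0.786). It was also the one listed in all 5 treated wild-type libraries and in 2 of 3 treated mutant libraries. Of the 4 libraries that listed the form without it, all mutant, 3 had Chd7 assembled in pieces, and of the 10 others 1 did. Whether the piecing has a part in this pattern was not tested. The Arid1a form with its segment was listed in 2 wild-type vehicle libraries, 0 mutant vehicle libraries, 1 treated wild-type library and 1 treated mutant library. First exons of Smarca2 and Chd8 also alternated between libraries, from 0% to 100% of abundance, with no group set apart.

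**Figure D4:**
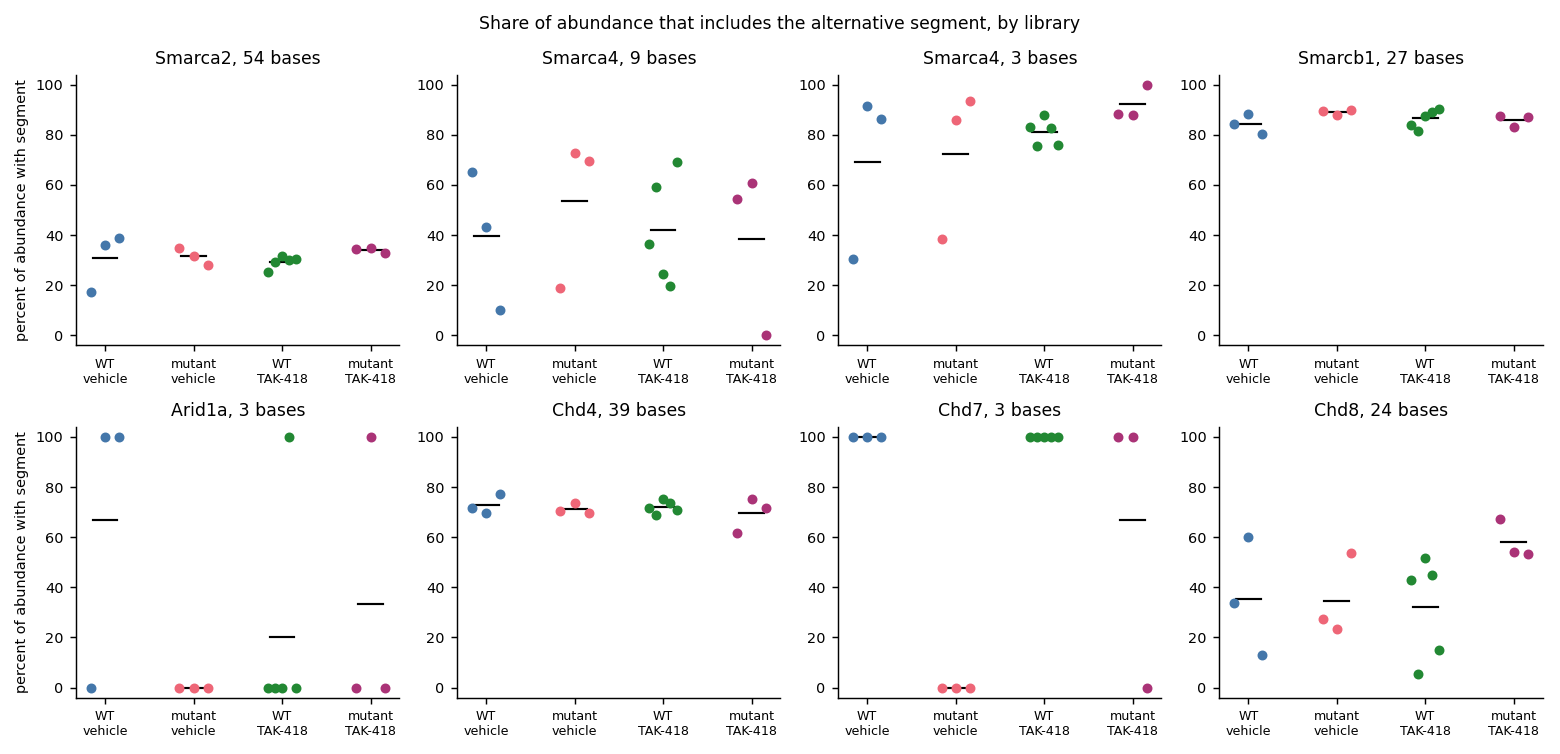
Percent of abundance in the form that includes each alternative segment (vertical axis, 0 to 100) in every library (points) by group, with the group mean as a black bar. The Smarca2 exon is included in 32.9% to 34.7% in treated mutants and 25.1% to 31.7% in treated wild types, with short transcripts that lack it counted. Chd7 and Arid1a take only 0% or 100% because each library lists 1 form.

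Partners of these genes were taken from 4 lists. Of 24 other SWI/SNF subunits, all 24 were tested, and 0 were called in any contrast by limma. With TAK-418 in wild types 4 had an unadjusted p under 0.05: Dpf3, Bicra and Dpf1 were at 0.35, 0.24 and 0.23 on the log2 scale and Phf10 at -0.63, with a smallest adjusted p of 0.241. The median of the 24 was 0.03, against -0.0035 over all genes, of which 8.42% had an unadjusted p under 0.05. Dpf1, Dpf3 and Phf10 belong to one family of BAF subunits that changes between progenitors and neurons: Phf10 and Dpf2 are known from dividing progenitors, and Dpf1 and Dpf3 from neurons. Dpf3 stood at 3.98 in wild types and 5.12 in mutants under vehicle, and at 5.34 and 5.30 with TAK-418 (mean summed levels), and its log2 difference under vehicle was 0.30 ± 0.089 (SE; unadjusted p = 0.00555, adjusted p = 0.699). With abundance times length the Dpf3 differences were 0.53 for genotype under vehicle (adjusted p = 0.705) and 0.47 for TAK-418 in wild types (adjusted p = 0.191). Phf10 stood at 24.1, 15.2, 15.7 and 9.79 in the same order, with a log2 difference of treated mutants from vehicle wild types of -1.23 ± 0.28 (SE; unadjusted p = 0.00101, adjusted p = 0.514), or -1.56 with abundance times length (adjusted p = 0.702). Dpf2 was level, at 28.7 to 30.0 in the group means, and Dpf1 ran from 25.9 to 31.2. Smarcd3, an accessory BAF subunit, was at -0.49 ± 0.19 and Bicral, of the non-canonical BAF form, at -0.14 ± 0.055 in treated mutants against treated wild types (SE; unadjusted p = 0.0233 and 0.0256, adjusted p = 0.924 for both). In that contrast Phf10 was at -0.59 (unadjusted p = 0.0377) and Bcl11a, a zinc-finger subunit, at 0.24 ± 0.11 (SE; unadjusted p = 0.0477, adjusted p = 0.924), with mean summed levels of 54.2 in treated mutants and 46.2 in treated wild types. Bcl11a turned to -0.10 with abundance times length (adjusted p = 0.91).

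Values of these subunits with an unadjusted p under 0.05 in the remaining contrasts had adjusted p of 0.43 to 0.976 by limma. Phf10 was at -0.72 for genotype under vehicle, -0.66 for genotype over both treatments and -0.57 for drug over both genotypes. Dpf3 was at 0.34 in treated mutants against vehicle wild types, at 0.15 and 0.20 for genotype and drug over all libraries and at -0.31 for the difference between drug effects, where Smarcd3 was at -0.75. Bicra, another subunit of non-canonical BAF, was at -0.16 and Dpf1 at -0.25 in vehicle mutants against treated wild types, and Bicra was at 0.13 for drug over both genotypes. For genotype over both treatments Bicral was at -0.10 and Bcl11a at 0.19, or -0.04 with abundance times length.

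The neuronal member of another switching pair, Actl6b, exceeded the progenitor form Actl6a in all 14 libraries, by a ratio of summed levels of 6.46 to 8.72. Under vehicle the mean ratio was 8.002 ± 0.26 for wild types and 6.72 ± 0.31 for mutants (SD, n = 3 each), and with TAK-418 it was 7.77 ± 0.66 for wild types (SD, n = 5) and 7.54 ± 1.03 for mutants (SD, n = 3). The vehicle groups did not overlap in this ratio, at 7.70 to 8.17 in wild types and 6.46 to 7.06 in mutants. Actl6a itself stood at 7.78 in wild-type vehicle and 9.01 in mutant vehicle libraries, and vehicle mutants differed from treated wild types by 0.21 (unadjusted p = 0.027, adjusted p = 0.481 by limma). The neuronal Ss18l1 and the progenitor Ss18 were nearly equal, at a ratio of 0.915 to 1.29.

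Of 6 other CHD genes, 0 were called, and 1, the neuronal Chd5, had an unadjusted p under 0.05, for vehicle mutants against treated wild types (-0.17 ± 0.075, SE; adjusted p = 0.523). Of 11 NuRD partners 10 were tested and 0 were called. Mta1, a scaffold of NuRD, was at 0.22 ± 0.059 with TAK-418 in wild types (SE; unadjusted p = 0.00356, adjusted p = 0.345), beside 0.13 for Chd3, and at 0.19 with abundance times length (adjusted p = 0.478). It was at 0.11 for drug over both genotypes (adjusted p = 0.547) and at -0.21 for the difference between drug effects (adjusted p = 0.976). Mbd2, its methyl-CpG reader, differed by 0.52 ± 0.19 for genotype over both treatments (SE; unadjusted p = 0.0162, adjusted p = 0.818) on the summed scale and by -0.56 with abundance times length (adjusted p = 0.737). Mta2 was listed in 1 library and was not tested. Of 9 ISWI remodelers 0 were called, and Baz1a was at -0.79 ± 0.29 with TAK-418 in wild types (SE; unadjusted p = 0.0196, adjusted p = 0.478) on the summed scale and at 0.06 with abundance times length (adjusted p = 0.956). Baz1a was also at 0.73 in vehicle mutants against treated wild types (adjusted p = 0.486) and at -0.55 for drug over both genotypes (adjusted p = 0.555), and at 0.0058 and 0.01 with abundance times length.

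The profile of the 10 genes over the 14 libraries, each standardised on the log2 scale and averaged, was most like that of Copa (Pearson r = 0.913), Kif26b (0.909), Osbp2 (0.894), Zer1 (0.878) and Prdm8 (0.862), among 13265 genes with a value in all 14 libraries. These are descriptions over libraries that share scaling and depth, chosen as the highest of many. Among the 45 pairs of members r ran from -0.646 for Smarca4 and Chd4 to 0.741 for Arid2 and Chd8 on the summed scale.

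RefSeq promoter windows (GRCm38.p6, 300 bases around each start) matched 7 of the 10 genes with 9 windows, and those of Chd3, Chd7 and Arid2 were not among them. The 9 windows held 17 to 42 CG dinucleotides (the motif CG, read the same on both strands), with a median of 29, against a median of 7 over 32851 windows, and 31.4% of all windows held at least 17. The highest count was at Arid1b and the lowest at the upstream window of Chd4. All 9 were rich in G and C, at 57.0% to 79.7%.

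Relative depth, worked out from the steps between low values, was 168 M for wild-type TAK-418 replicate 1 and between 35.1 and 59.98 M for the other 13 (M stands for 1000000). Of 7 hippocampal neuron markers, 6 were listed in all 14 libraries and Spink8 in 13. The summed level of 10 choroid plexus markers was 6523 in wild-type vehicle replicate 3 and 5086 in mutant vehicle replicate 1, 918 in mutant vehicle replicate 3, 613 in mutant TAK-418 replicate 1 and 16.4 to 45.0 in the other 10. Without the highest 2, the number of the 10 genes with an unadjusted p under 0.05 fell from 4 to 1 for TAK-418 in wild types, from 2 to 0 for drug over both genotypes and from 2 to 0 for vehicle mutants against treated wild types. It rose from 1 to 2 for genotype under TAK-418 and for the difference between drug effects, and was the same in the other 4 contrasts. The fall from 4 to 1 is not separate from the one given above, since wild-type vehicle replicate 3 is left out both times. Kmt2d stood at 14.1 and 15.3 in wild types and 11.97 and 12.5 in mutants under vehicle and TAK-418 (mean summed levels), a difference of -0.26 ± 0.11 for genotype over both treatments (SE; unadjusted p = 0.0425, adjusted p = 0.847), and the reads do not show which allele they came from. Kdm1a, which encodes LSD1, stood at 33.6 and 34.7 in wild types and 32.8 and 34.2 in mutants under vehicle and TAK-418 (mean summed levels), and its log2 differences ran from -0.08 to 0.06 over the 9 contrasts, with a smallest unadjusted p of 0.111.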

How the data were processed

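Transcripts were assembled by the authors for each library with CLASS 2.1.7, per the file headers, after TopHat2 2.1.0 on mm10, per the submitters' processing notes. The score column of those deposited files is constant. The value used is the abundance of each transcript, whose FPKM-like scale was worked out from the values because no label names it. The 4 comparison tables deposited by the authors hold 1 FPKM value per group, and for each locus a log2 fold change, p-value and q-value, per the file headers.

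Transcripts were assigned to GENCODE M21 genes by shared introns, or single-exon ones by at least 50% overlap, and abundances were summed. Strand of single-exon transcripts is mostly not given, so overlapping and antisense genes remain uncertain, as do genes with near-identical copies. Scaling between libraries used median ratios over 13275 genes. Of 18761 genes, 16589 had values in 3 or more libraries and entered the tests as log2(value + 0.9), and a fold change on that scale understates low genes. limma 3.58.1 (R 4.3.3, trend) fitted all 14 libraries with 4 group means, with Benjamini-Hochberg adjustment over all genes. Splice choices were introns sharing 1 site, each with at least 10% of the pair's abundance and listed in at least 10 libraries, tested by exact permutation (scipy 1.17.1). The fits were tested on simulated data. Abundance multiplied by length, pseudocount, filter, scaling, assignment, weights, a sex covariate and leaving out libraries were tried as alternatives, and the full-length level was added after seeing the data. Sex was not taken from a label but called from Xist against Y-chromosome genes, giving 6 female and 8 male libraries. The female ones were wild-type vehicle replicates 1 and 3, mutant vehicle replicate 1, wild-type TAK-418 replicates 2 and 5 and mutant TAK-418 replicate 2.

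Members and gene lists were chosen with earlier results of these data known. All members are described. Differences are printed where the unadjusted p was under 0.05 or the groups did not overlap, both on the summed scale. The Chd7 values with abundance times length were chosen after their values were seen. Groups apart only on the full-length scale were not a ground for printing. This left out Arid2 for genotype under TAK-418 and Chd8 for vehicle mutants against treated wild types. List genes are printed for an unadjusted p under 0.05, the 3 with the smallest p per list and contrast, with the switching subunits always given. Bcl11a, the next in its contrasts, was added after its values were seen. The ratios and promoter counts were chosen after seeing the data.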

Additional observations from a re-analysis of the deposited data

Results flagged for a closer look

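In the group of 5 treated wild-type libraries, 4 of 31 sets of values had 1 library far from the other 4, by a gap of over 0.71 of the group's range. Chance gives such a gap in about 1 set in 20 where values are normally distributed. That rate does not hold for splice shares at or near 0% or 100%, and sets of the same gene are not independent. The summed level of Chd7 was 5.78 in wild-type TAK-418 replicate 3 and 3.18 to 3.73 in the others. That library lists Chd7 as 3 transcripts, and its full-length level was 3.50, within the group's 3.20 to 3.71. The downstream first exon of Smarca2 held 100% in replicate 3 and 0% to 5.24% in the others. The Arid1a form with the 3-base segment held 100% in replicate 4 and 0% in the others. The downstream first exon of Chd8 held 84.9% in replicate 5 and 0% to 19.5% in the others.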

How the results depend on the processing

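None of the 10 genes was called in any of the 9 contrasts under any alternative run, with a smallest adjusted p of 0.221 (Arid1a, TAK-418 in wild types, sample weights), and none in the authors' deposited tables at a q-value of 0.01 or an unadjusted p of 0.05. Of the 14 log2 differences with an unadjusted p under 0.05 or groups that did not overlap on the summed scale, 3 changed sign. Without scaling, Smarcb1 for genotype under vehicle did (-0.0044, where the median of all genes was -0.076). With the highest transcript alone, Arid1a did for TAK-418 in wild types (-0.025) and for drug over both genotypes (-0.069). The cause was not tested. Over all 90 differences of the 10 genes, 22 changed sign with abundance times length. The few calls among all genes moved with the setting. For genotype under vehicle they numbered 0, and 1, 2, 5 or 6 under alternatives. For TAK-418 in mutants they numbered 1, and 0, 2, 3, 7 or 17. For TAK-418 in wild types they numbered 0, and 1, 2, 3, 4, 5 or 7. For genotype under TAK-418 they numbered 2, and 0, 1, 3, 4, 5 or 8. For treated mutants against vehicle wild types they numbered 1, and 0, 2, 3, 4, 6 or 11, and for vehicle mutants against treated wild types 0, and 1, 5 or 7. For the interaction they numbered 1, and 0, 2, 3 or 5. For genotype over both treatments they numbered 1, and 0, 2 or 4, and for drug over both genotypes 2, and 0, 1, 3, 4, 7 or 12. Fits on only the 2 groups of a contrast gave the counts of 17 and 11. Leaving out each library in turn gave 0 to 6, 1 to 8, 0 to 2, 1 to 7, 1 to 6, 0 to 8, 0 to 8, 0 to 4 and 1 to 7 calls, in the same order. No paired analysis was possible because replicate numbers only name the libraries. With 3 to 5 libraries a group, the intervals in the plot of log2 differences are wide and not adjusted for the number of genes. A call across all genes needed more than an interval clear of 0. Arid1a for TAK-418 in wild types had an interval of 0.19 to 0.62 and an adjusted p of 0.28 by limma.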
